A study of Homo sapiens with 6 samples.

Results

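Histone genes encode the proteins around which nuclear DNA is wound, and their RNA was measured here in the clear cell renal cell carcinoma line 786-O and in the derivative labelled 786-O FOXD1null. Genes of the deposited table that encode a core histone (H2A, H2B, H3 or H4), macroH2A or a linker histone (H1) were taken by their symbols, with pseudogenes and CENPA left out. The rule used no measured value beyond presence in the deposited table, where 21 of 16922 genes had a mean normalized count under 10. Which genes the table holds may thus depend on their level. The 33 genes described here are 24 replication-dependent genes and 9 variants. In GENCODE release 44, 46 other protein-coding genes are replication-dependent histone genes. These were not found by name in the deposited table and so were not analysed here. Of the replication-dependent genes 20 lie on chromosome 6, 3 on chromosome 1 and 1 on chromosome 12. The groups were 3 libraries of the parental line and 3 of the derivative in which the forkhead factor FOXD1 was inactivated, both grown untreated in the same medium. How the allele was altered and whether the derivative is a single clone is not stated in the labels or the methods. The extracts are called biological triplicates, but nothing says that they came from separate cultures, so each p measures only how these libraries scatter, and that scatter may be technical.

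Core histones form the octamer of the nucleosome, and linker histones bind the DNA that enters and leaves it. Replication-dependent histone genes lie in clusters, are transcribed mainly in S phase and give mRNAs that end in a conserved stem-loop, bound by SLBP, in place of a poly(A) tail. Variant histone genes mostly lie apart from those clusters, are transcribed throughout the cell cycle and give polyadenylated mRNAs, and H2AX is known to give both forms. The labels name an mRNA library kit, a type that commonly captures RNA by its poly(A) tail, while the study's methods call the libraries total RNA. A low count of a replication-dependent gene therefore cannot be told apart from poor capture of its mRNA, and in bulk RNA fewer cells that express a gene cannot be told apart from less RNA per cell.

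The stem-loop separated the classes in the gene sequences almost as the symbols do. The pattern searched was GG, any 2 bases, CTT, any base, T, any base, AG, any 2 bases and CC, on the sense strand only and within 150 bases after an annotated stop codon. It was found in 24 of 24 replication-dependent genes of the table, in 46 of 46 of those not analysed here, and in 1 of 9 variants, H2AX. Of 17 annotated variants not analysed here 1 held it, H3-7. Among all other protein-coding genes 2 of 19511 held it, or 0.0103%. The sequences below are shown because they belong to the 3 replication-dependent genes that passed the test between lines, to 2 abundant genes that did not, and to H2AX. They are read from hg38 in the direction of the mRNA, with the 16 bases of the stem-loop in capitals.
H2AC6: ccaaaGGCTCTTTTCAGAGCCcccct
H2AC11: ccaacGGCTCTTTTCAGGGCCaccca
H2BC5: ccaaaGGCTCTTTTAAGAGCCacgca
H2BC12: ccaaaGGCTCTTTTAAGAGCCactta
H4C3: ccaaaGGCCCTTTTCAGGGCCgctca
H2AX: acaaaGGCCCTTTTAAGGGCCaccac
The capitals lie at chr6:26124669-26124684 on the plus strand for H2AC6, chr6:27133515-27133530 on the plus strand for H2AC11 and chr6:26158587-26158602 on the plus strand for H2BC5. They lie at chr6:27146366-27146381 on the minus strand for H2BC12, chr6:26104317-26104332 on the plus strand for H4C3 and chr11:119094898-119094913 on the minus strand for H2AX.

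The form of H2AC6 was shared by 11 of the 24 genes, among them all 3 H1 genes and 5 H2B genes. The form of H2BC5 and H2BC12 was shared by 5 genes, 4 of them H2B and 1 H3. That of H4C3 was found in 4 genes, all H4. H2AC11, H2AC20, H3C6 and H4C9 each had a form of its own. Of the genes that passed the test, H2AC6, H2AC11 and H2BC5 thus carried 3 different forms, and H2BC12 had the same 16 bases as H2BC5. On the 24 replication-dependent genes, the annotated gene ran more than 200 bases past the stem-loop in 10, whereas this held for 7 of the 46 not analysed here.

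Counts of variant histone genes were far higher than those of replication-dependent histone genes in all 6 libraries. Low abundance of replication-dependent mRNA cannot be told apart here from poor capture of mRNA without a poly(A) tail. Levels are compared between genes as mean normalized counts per kilobase of annotated exon, where a normalized count is a gene's reads divided by a size factor of the library. H2AZ1, which encodes the transcription-linked variant H2A.Z, stood at 6906, followed by H2AX at 4903, H1-10 at 3843, H3-3B at 3175, H3-3A at 1299 and H2AZ2 at 1231. H2AX encodes the variant that is phosphorylated at DNA breaks, and H3-3A and H3-3B both encode H3.3. Neighbours in this order were not tested against each other. MACROH2A1, which encodes a histone with a large additional domain, followed at 588. The 9 variants had a median of 1299, and the 24 replication-dependent genes a median of 33.0, with a range from 5.06 for H3C6 to 293 for H2BC12. The ranges overlapped, since the variants H2AJ at 139 and H3-5 at 48.3 lay below H2BC12, H4C3 at 271 and H1-2 at 157. The divisor is all annotated exon of a gene, 17013 bases for MACROH2A1 and 1516 for H1-10, whichever transcripts are expressed. The order of the variants depends on it. By mean normalized count H3-3B was highest at 19473, and MACROH2A1 at 10003 lay above H2AX at 7805 and H1-10 at 5826. The divisor also includes exon annotated past the stem-loop, which lowers this level for the genes that have it. H3C6, with 2679 exon bases, and H3C2, with 511, had mean normalized counts of 13.6 and 14.1 but stood at 5.06 and 27.6.

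**Figure D1:**
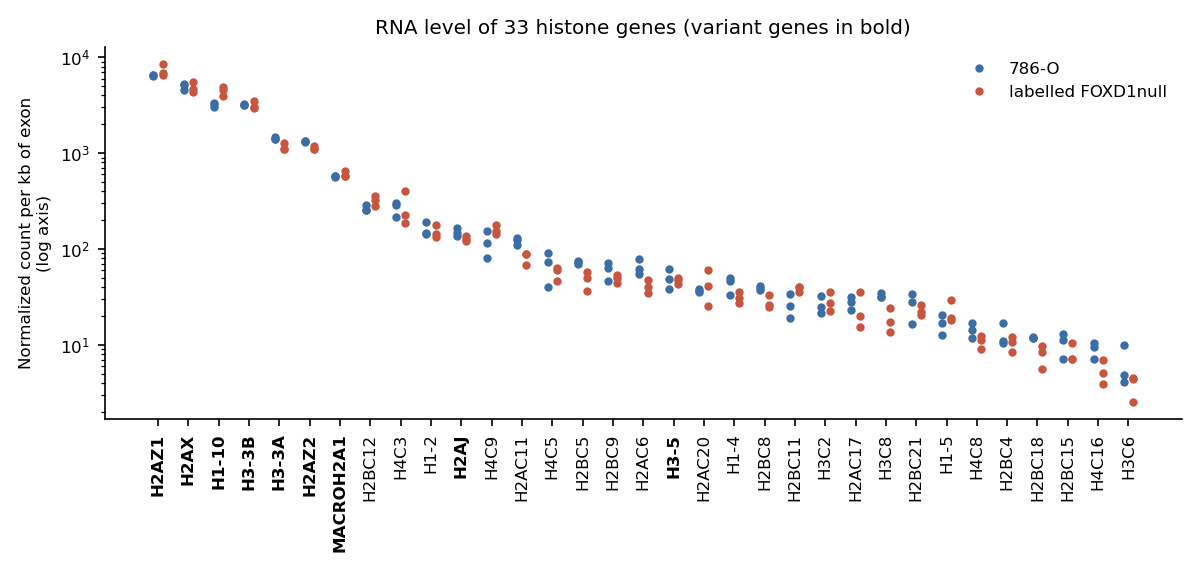
Normalized count per kilobase of exon, on a log axis, for each of the 33 histone genes, with 1 point per library (blue, 786-O; red, libraries labelled FOXD1null) and variant genes in bold. The 7 genes on the left are all variants, with mean levels from 588 to 6906, and the highest replication-dependent means are 293 for H2BC12 and 271 for H4C3.

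Summed over genes, the replication-dependent RNAs gave normalized counts of 959, 1209 and 1069 in parental replicates 1 to 3 against 1077, 932 and 898 in those labelled FOXD1null. The groups overlapped, at 1079 ± 126 against 969 ± 94.9 (SD, n = 3 libraries each), a log2 ratio of the means of -0.16. This ratio was -0.07 without 786-O replicate 2, -0.24 without FOXD1null replicate 1, -0.23 without 786-O replicate 1, -0.10 without FOXD1null replicate 3 and -0.25 with equal library totals. The 9 variants summed to 72508, 71136 and 72696 in parental 786-O against 80631, 71071 and 69322 in those labelled FOXD1null. These groups overlapped as well, at 72113 ± 852 against 73674 ± 6087, with a log2 ratio of 0.03 that turned to -0.06 when libraries were scaled to equal totals and to -0.04 without FOXD1null replicate 1. Replication-dependent genes thus supplied between 1.28% and 1.67% of the histone counts of a library, most in 786-O replicate 2 and least in FOXD1null replicate 3.

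**Figure D2:**
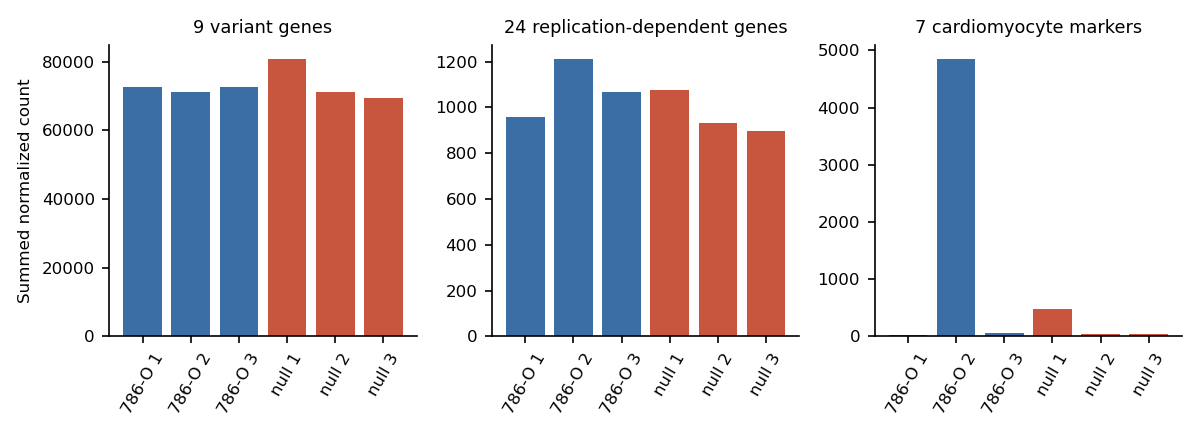
Summed normalized counts per library (bars; blue, 786-O; red, libraries labelled FOXD1null) of the 9 variant genes, the 24 replication-dependent genes and 7 cardiomyocyte markers. FOXD1null replicate 1 has the tallest variant bar at 80631, and 786-O replicate 2 has the tallest replication-dependent bar at 1209 and the tallest cardiomyocyte bar at 4844.

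A few facts of the libraries touch these values. FOXD1 itself was higher in the libraries labelled FOXD1null, with normalized counts of 432, 498 and 480 against 1277, 1048 and 901, so every direction below follows the label only. Depth ranged from 30982463 to 37843830 reads in genes. All 20 markers of 786-O and renal carcinoma were in the table. Their sums ran from 287373 to 298816 in 786-O and from 373986 to 421802 in the libraries labelled FOXD1null. In the test described below 11 were higher, among them PAX8 and VIM, and 3 were lower, PAX2, LHX1 and EGFR. These are 70.0% called against 33.4% of all genes. Of 12 cardiomyocyte markers 7 were in the table, and their sum was 4844 in 786-O replicate 2, 481 in FOXD1null replicate 1 and 17.9 to 67.2 in the other 4 libraries. MYH6, the alpha cardiac myosin, was at 0 in 786-O replicate 1 and FOXD1null replicate 2. Of 12 hepatocyte markers 6 were in the table, with sums from 2700 to 4048 in 786-O and from 8292 to 9046 in the libraries labelled FOXD1null that came mostly from SERPINA1. FGG, a fibrinogen chain, was at 335 in 786-O replicate 2 and at 0 to 32.2 elsewhere. FOXD1null replicate 1 lay nearer to 786-O than its group did, with Pearson correlations across genes of 0.972 to 0.977 with the 786-O libraries against 0.953 to 0.960 for FOXD1null replicates 2 and 3. It was the highest of its group for 8 of 9 variants, and 786-O replicate 2 was the highest of its group for 15 of 24 replication-dependent genes. The part of these libraries in the results was not tested.

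In the comparison of the lines, 1 histone gene was higher and 5 were lower in the libraries labelled FOXD1null, and 27 of 33 did not pass. The test was limma on log2(normalized count + 1), and a gene passed at a Benjamini-Hochberg adjusted p at or under 0.05 over 16901 genes. H1-10 rose, and H2AZ2, H3-3A, H2AC6, H2AC11 and H2BC5 fell. The 6 calls are 18.2% of the histone genes, whereas 33.4% of all genes tested were called, 16.3% of them as higher and 17.1% as lower. All 33 members passed the filter of a mean normalized count of at least 10. The count was 1 without FOXD1null replicate 2, FOXD1null replicate 3 or 786-O replicate 3, and 2 without 786-O replicate 1 or 2. In the same settings the share of all genes called was 24.6% and 27.1% without FOXD1null replicate 2 and 3, and 21.5%, 23.9% and 21.6% without 786-O replicate 1, 2 and 3. Without FOXD1null replicate 1 the count was 7, beside 55.2% of all genes. H1-10 was called in each of these settings. Other scalings and filters gave 7 calls with equal library totals (35.0% of all genes), 4 under a minimum mean of 50 (38.6%), 3 with a replicate block (28.9%), and 6 with no filter or with a pseudocount of 0.5 (33.3% in both).

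Among the 9 variants 1 was higher, 2 were lower and 6 did not pass, or 33.3% called against 33.4% of all genes. The 3 calls of variants were 1 without FOXD1null replicate 2 or 3 or 786-O replicate 1 or 3, and 5 without FOXD1null replicate 1. Among the 24 replication-dependent genes 0 were higher by limma, 3 were lower and 21 did not pass, or 12.5% called against the same 33.4%. At an unadjusted p under 0.05, met by 7296 of all 16901 genes tested, 1 of the 24 was higher and 5 were lower. By edgeR, which called 33.6% of all genes, 0 were higher and 2 lower, and by DESeq2, which called 34.6%, 0 were higher and 1 lower. The 3 limma calls fell to 0 when FOXD1null replicate 2 or 3 or 786-O replicate 2 or 3 was left out. Of the 24 replication-dependent genes 18 had a negative log2 fold change, beside 8589 of all 16901 genes tested. The median log2 fold change of the replication-dependent genes was -0.27, and it was -0.16 without 786-O replicate 2 and -0.39 without 786-O replicate 1. For the variants it was -0.03 (0.038 without FOXD1null replicate 3, 0.0047 without 786-O replicate 2 and -0.10 without FOXD1null replicate 1), beside -0.01 for all genes tested. Groups did not overlap for 8 replication-dependent genes (1 higher, 7 lower) and for 4 variants (1 higher, 3 lower), or 12 of 33, against 49.0% of all genes tested (24.1% higher and 24.9% lower).

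Precision differed between the classes. A replication-dependent gene had 7 to 173 reads in a library, and its log2 fold change had a median standard error of 0.27, against 0.09 for the variants and 0.12 for all genes. The median coefficient of variation within a group was 18.2% for the replication-dependent genes, and counting error alone gives 18.7%. For the variants it was 7.31%, where counting error gives 1.13%. The observed values rest on 3 libraries per group and those for counting error are computed from mean reads, so they are not like measures. Differences of the size seen in H2AZ2 or H3-3A were therefore not detectable at this depth in most replication-dependent genes.

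**Figure D3:**
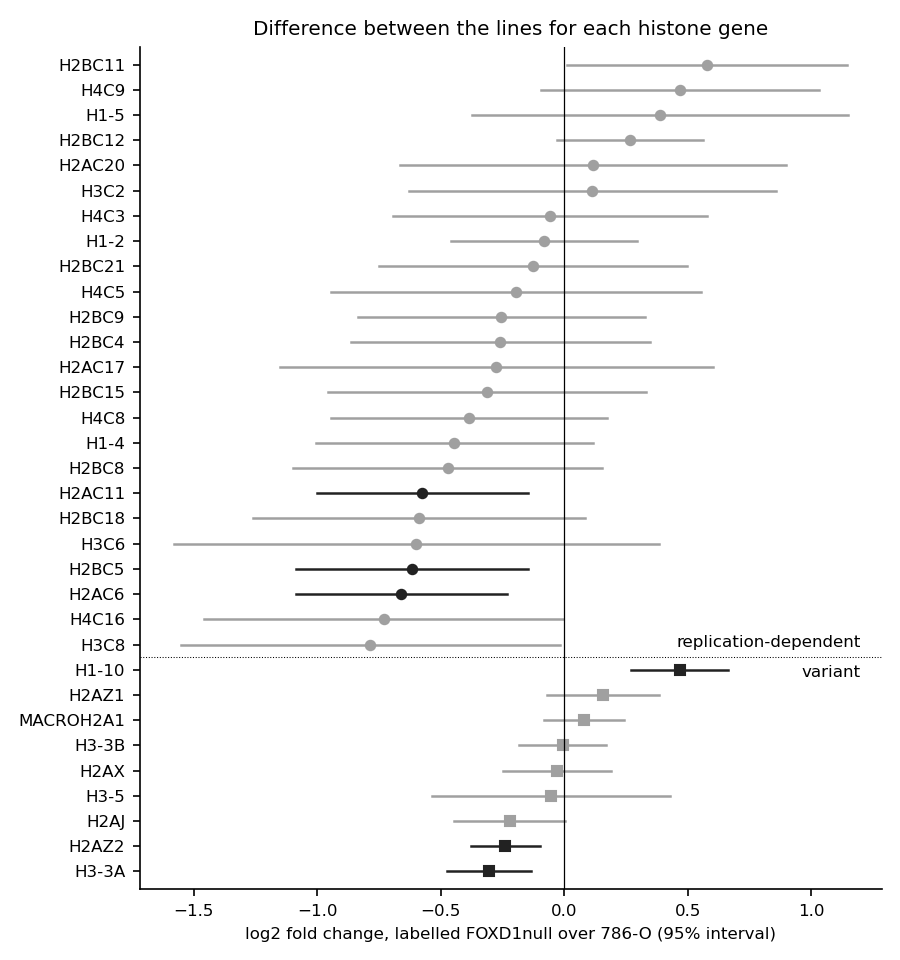
The log2 fold change of each histone gene, libraries labelled FOXD1null over 786-O, with its 95% interval from limma (bars); circles are replication-dependent genes, squares are variants, and black symbols passed the adjusted test. Intervals of the replication-dependent genes are wide, and H3-3A at -0.30 and H1-10 at 0.47 lie farthest from 0 among the variants.

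Among the linker histones, H1-10 was called as higher. H1-10 encodes H1.X, a linker histone with little resemblance to the clustered H1 proteins, and lies at chr3:129314771-129316286 of hg38 on the minus strand. It had normalized counts of 4981, 4610 and 5054 in parental 786-O against 6045, 7396 and 6870 in those labelled FOXD1null, without overlap. Its log2 fold change was 0.47 (SE 0.09, limma adjusted p = 0.0041). The antisense gene H1-10-AS1 overlaps its exons by 247 bases, and the strand setting of the counting is not given, so their reads cannot be told apart there. H1-10-AS1 was also higher, at 110, 108 and 103 against 153, 177 and 169, a level well under that of H1-10. The clustered linker histones H1-2, H1-4 and H1-5 did not pass. H1-2, the most abundant of these, had 106, 139 and 109 against 129, 106 and 98.1, with a log2 fold change of -0.08 and an interval from -0.46 to 0.29.

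Among the variants of H2A, H2AZ2 was called as lower. H2AZ1 and H2AZ2 encode nearly identical forms of H2A.Z, which is exchanged into nucleosomes at promoters. H2AZ2 lies at chr7:44826791-44848087 of hg38 on the minus strand. It had normalized counts of 9209, 9433 and 9353 in parental 786-O against 8345, 7690 and 7706 in those labelled FOXD1null, without overlap. The log2 fold change was -0.24 (SE 0.06, limma adjusted p = 0.018), and leaving out any library but FOXD1null replicate 1 ended the call, with limma adjusted p from 0.058 to 0.083. Of 61 tested genes within 5 Mb of H2AZ2, 17 were lower and 6 higher, with a median log2 fold change of -0.13. Of all genes tested, 17.1% were lower and 16.3% higher. Near the other called variants, 6 were lower and 14 higher of 65 for H1-10, and 15 and 15 of 76 for H3-3A. A part of the region in the call of H2AZ2 was not tested. H2AZ1 had 14686, 14620 and 15012 against 19365, 15398 and 14981, where FOXD1null replicate 1 stood apart and the groups overlapped (log2 fold change 0.16, interval -0.07 to 0.38). Within each library, H2AZ2 supplied 38.5%, 39.2% and 38.4% of the summed counts of both genes in parental 786-O against 30.1%, 33.3% and 33.97% in those labelled FOXD1null. This share does not depend on how libraries are scaled, was computed after the values were seen and was not tested.

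H2AX, H2AJ and MACROH2A1 did not pass in the comparison as given above. H2AX had 8295, 7208 and 8122 in parental 786-O against 8705, 7506 and 6994 in those labelled FOXD1null, and the groups overlapped. Its log2 fold change was -0.03, and it was -0.18 with a limma adjusted p of 3.0e-04 when 786-O replicate 2 and FOXD1null replicate 1 were both left out. That setting called 55.6% of all genes. H2AX passed in only 1 of 14 alternatives and had the other sign in 2. H2AJ, a mammalian H2A variant that differs from canonical H2A mainly in its tail, had 551, 491 and 457 against 454, 422 and 408. These groups did not overlap, by a narrow margin, at a log2 fold change of -0.22 (limma adjusted p = 0.121). H2AJ passed with equal library totals (-0.31, limma adjusted p = 0.038), without FOXD1null replicate 1 (-0.26, limma adjusted p = 0.015) and without both that library and 786-O replicate 2 (-0.27, limma adjusted p = 0.010). MACROH2A1, known for its place on silent chromatin, had 9734, 9525 and 9916 against 11197, 9816 and 9830, a log2 fold change of 0.08 with an interval from -0.08 to 0.24. It overlaps the antisense gene PITX1-AS1 by 3171 bases of exon, and PITX1-AS1 had at most 51.5 normalized counts in a library.

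H3.3, the H3 variant that is deposited outside replication, comes from H3-3A and H3-3B, which encode the same protein. H3-3A lies at chr1:226061851-226072019 of hg38 on the plus strand. It had normalized counts of 5666, 5404 and 5391 in parental 786-O against 4876, 4253 and 4228 in those labelled FOXD1null, without overlap. The log2 fold change was -0.30 (SE 0.07, limma adjusted p = 0.015), and the call ended without FOXD1null replicate 2 or 3 or 786-O replicate 1 or 3, with limma adjusted p from 0.050 to 0.073. Of the 100-base stretches of H3-3A exons, 15.6% occur in another gene, mostly H3 pseudogenes, which makes its count less certain. H3-3B, the more abundant gene, had 19332, 19776 and 19350 against 21587, 18541 and 18253, and the groups overlapped. Its log2 fold change was -0.01 with an interval from -0.18 to 0.17, and -0.08 without FOXD1null replicate 1, where it passed with a limma adjusted p of 0.045. H3-3A supplied 22.7%, 21.5% and 21.8% of the summed H3.3 counts in parental 786-O against 18.4%, 18.7% and 18.8% in those labelled FOXD1null. The shares did not overlap between lines, were computed after the values were seen and were not tested. H3-5, which encodes the related H3.5 known from testis, had 54.7, 68.9 and 42.3 against 56.1, 48.5 and 52.4, and 1.58% of its 100-base stretches occur in H3-3B.

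The 3 replication-dependent genes that fell were 2 of the 4 H2A genes and 1 of the 9 H2B genes, beside 17.1% of all genes tested. All 3 lie on chromosome 6, as do 20 of the 24 replication-dependent genes. H2AC6 had normalized counts of 91.5, 131 and 104 in parental 786-O against 79.8, 66.7 and 58.3 in those labelled FOXD1null, a log2 fold change of -0.66 (SE 0.19, limma adjusted p = 0.026). Its groups did not overlap, 786-O replicate 2 was the highest, and without that library the log2 fold change was -0.52 with a limma adjusted p of 0.101. The call of H2AC6 also ended without 786-O replicate 3 or FOXD1null replicate 2 or 3. H2AC11 had 61.4, 54.4 and 64.4 against 33.4, 43.5 and 43.7 (log2 fold change -0.57, SE 0.19, limma adjusted p = 0.044). H2BC5 had 60.3, 65.3 and 62.6 against 49.6, 31.3 and 42.7 (log2 fold change -0.62, SE 0.21, limma adjusted p = 0.049). Neither group pair overlapped, yet H2AC11 lost its call when any library was left out, and H2BC5 when any but FOXD1null replicate 1 was. Both H2AC6 and H2BC5 are annotated far past the stem-loop, by 14432 and 12747 bases of gene, and H2AC11 ends 5 bases after it.

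**Figure D4:**
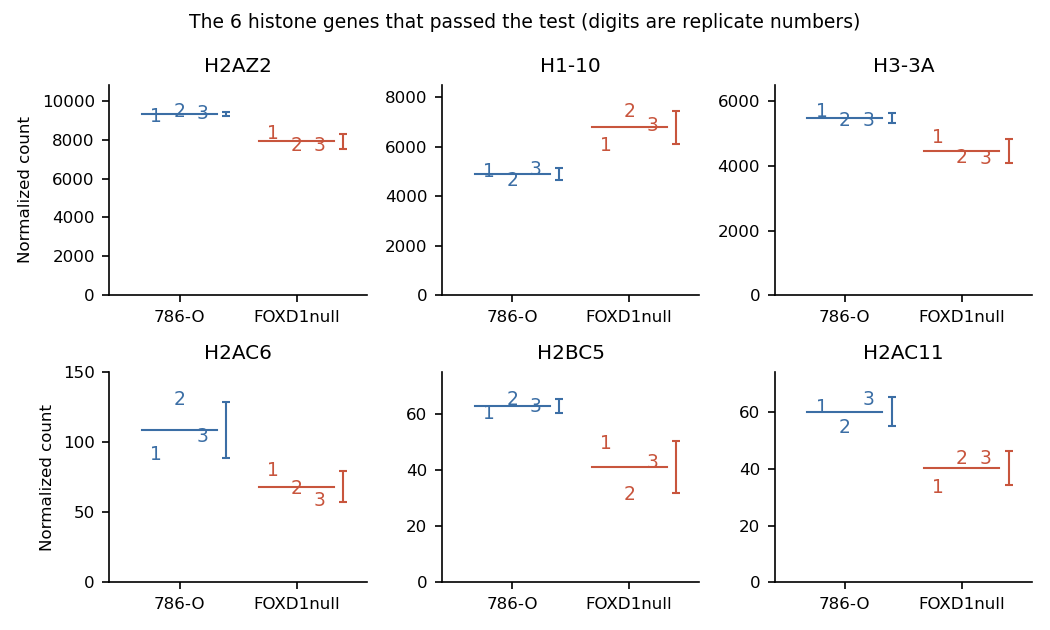
Normalized counts of the 6 histone genes that passed the test, by line, with digits for the replicate numbers, horizontal lines for group means and error bars for SD (n = 3 libraries), each panel on a linear axis from 0. The groups do not overlap in any panel, 786-O replicate 2 is the highest at 131 for H2AC6, and FOXD1null replicate 1 is the library of its group nearest to 786-O in every panel but that of H2AC11.

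By family, the summed normalized counts of the 4 replication-dependent H2A genes were 183, 218 and 200 in parental 786-O against 151, 148 and 124 in those labelled FOXD1null. These did not overlap, at a log2 ratio of the means of -0.51. Most of this sum comes from H2AC6 and H2AC11, which were called above, so it is not a separate result. The other members, H2AC17 and H2AC20, went from means of 13.5 to 11.5 and of 18.2 to 21.0. For the 9 H2B genes the sums were 366, 493 and 429 against 418, 402 and 401, and for the 5 H4 genes 194, 276 and 243 against 294, 198 and 207, so the groups overlapped in both. Sums of the 3 H1 genes were 156, 181 and 158 against 175, 146 and 141, and those of the 3 H3 genes 59.1, 40.8 and 39.6 against 38.8, 38.4 and 25.2. The H3 groups did not overlap, but rest on 26 to 53 reads per library. The sums were not tested.

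Of the 5 replication-dependent genes with the highest mean count, H2AC6 was called and the other 4 did not pass. H2BC12 had 126, 143 and 125 in parental 786-O against 160, 175 and 141 in those labelled FOXD1null, where the ranges overlapped by a narrow margin (log2 fold change 0.26, limma adjusted p = 0.154). Of its 100-base stretches 22.5% occur in another gene, among them H2BC12L. H4C3 had 88.2, 117 and 123 against 163, 75.8 and 91.3, and FOXD1null replicate 1 was both the highest of the 6 and far from its group (log2 fold change -0.06, interval -0.69 to 0.58). H1-2 and H4C9 are the other two. H2BC11, named after its values were seen as the only replication-dependent gene whose groups did not overlap upwards, had 20.1, 35.4 and 26.7 against 42.0, 37.4 and 41.8 (log2 fold change 0.58, limma adjusted p = 0.110). H4C9 had 32.4, 61.6 and 46.0 against 70.1, 61.6 and 57.3 (0.47 on the log2 scale, limma adjusted p = 0.181). Both H2BC11 and H4C9 passed when 786-O replicate 2 and FOXD1null replicate 1 were left out together. In that setting 9 histone genes passed, beside 55.6% of all genes.

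The other replication-dependent genes had mean normalized counts of 12.5 to 54.7. Their log2 fold changes ran from -0.79 for H3C8 to 0.39 for H1-5. H2AC17 and H2BC18 are uncertain, since 63.7% and 36.7% of their 100-base stretches occur in another gene, as are H2BC4 and H2AC20 with 21.4% and 12.7%.

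Genes that make, process and carry histones were counted from lists of known roles. Of 26 genes for histone mRNA transcription and processing, 1 was higher, 3 were lower and 22 did not pass, so that 15.4% were called against 33.4% of all genes. SLBP, the stem-loop binding protein, had normalized counts of 4746, 4692 and 4911 in parental 786-O against 5906, 4815 and 4642 in those labelled FOXD1null, and the groups overlapped (log2 fold change 0.09, limma adjusted p = 0.507). FOXD1null replicate 1 was the highest, as it was for most variants. TENT4B, a non-canonical poly(A) polymerase, had a log2 fold change of 0.59 and rose from 1059 ± 76.0 to 1588 ± 70.4 (SD, n = 3). WDR33, which reads the polyadenylation signal, and CPSF2, a subunit of the complex that cleaves histone and other pre-mRNAs, fell by 0.23 and 0.20.

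Of 38 histone chaperones and exchange factors, 1 was higher, 4 were lower and 33 did not pass, or 13.2% called against 33.4% of all genes. Their median log2 fold change was -0.004. ASF1A, a chaperone of H3 and H4, had normalized counts of 1023, 1052 and 1103 in parental 786-O against 738, 628 and 637 in those labelled FOXD1null. It fell by 0.67 on the log2 scale (SE 0.09, limma adjusted p = 8.4e-04). SUPT6H, an elongation factor that reassembles nucleosomes behind RNA polymerase II, fell by 0.65, from 6985 ± 231 to 4457 ± 312. ZNHIT1, a subunit of the complex that places H2A.Z, rose by 0.49, from 3029 ± 3.55 to 4270 ± 614 (SD, n = 3 in each line).

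Of 29 S phase genes, the time at which replication-dependent histones are made, 5 were higher, 3 lower and 21 did not pass, or 27.6% called against the same 33.4%. Their median log2 fold change was -0.03. E2F1 and CDT1 rose by 0.55 and 0.50, and CDC6, which loads the replicative helicase, fell by 0.46. Of 34 RNAs known to lack a poly(A) tail, 9 were in the table. By limma 0 were higher and 2 lower, or 22.2% called against 33.4% of all genes. At an unadjusted p under 0.05, met by 7296 of all 16901 genes tested, 1 of the 9 was higher and 2 were lower. By edgeR 0 were higher, and by DESeq2 1 was. The 2 that fell were RNU5A-1, a spliceosomal RNA at 13.4, 27.2 and 18.4 against 8.62, 0 and 2.91, and SNORD3A at 49.1, 40.8 and 53.4 against 29.1, 22.2 and 25.2, both named after their values were seen. Their move beside that of H2AC6, H2AC11 and H2BC5 was not tested as a sign of how each library captured RNA without a tail. The summed count of the 9, almost all MALAT1, went the other way, from 25489, 36431 and 27180 to 45682, 32505 and 41052, with overlap.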

How the data were processed

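The authors trimmed reads (Trimmomatic 0.36), aligned them to hg38 (STAR 2.5.2b) and counted unique reads over exons per gene (featureCounts). Their annotation release and strand setting are unknown (not given in the sources used here). Deposited as a signal is the normalized count, each count divided by a DESeq2 size factor per library, and 100% of values were whole multiples of 1 read within 0.001 read. Of the deposited columns, 6 belong to no sample: the authors' group means, log2 fold change, p-value, adjusted p-value and difference of means. None was used. Genes were named from gene tables and placed by GENCODE release 44, and 139 had no name. The retired identifier of H3C2 was named through the study's supplementary gene list.

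Lines were compared by limma 3.58.1 under R 4.3.3, with trend, on log2(normalized count + 1). No covariate entered, and genes needed a mean of 10 or more. Fold changes on this scale understate those of low genes. Alternatives were a pseudocount of 0.5, no filter, a mean of at least 50, equal library totals, edgeR 4.0.16 and DESeq2 1.42.0 on recovered reads, a replicate block, leaving out libraries, and classes by stem-loop. The fits were tested on simulated data. Of the histone genes of the table, 1 is not reported here and enters no count, sum or figure, though it stayed in the fit across all genes. Genes named are all called histone genes, all variants, the 5 replication-dependent genes of highest mean, SLBP and at most 3 called genes per other list with a mean of at least 100. The members and lists were chosen with earlier results of these data known. Stem-loops were searched in hg38, and shared sequence was counted as 100-base stretches of exons found in another annotated gene. Python 3.11.15, numpy 2.4.6, pandas 2.3.3 and matplotlib 3.10.9 were used.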

Additional observations from a re-analysis of the deposited data

How the results depend on the processing

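H1-10 passed in 14 of 14 alternatives, with log2 fold changes from 0.38 to 0.55. The call count of 6 was 3 with a replicate block (H1-10, H2AC6 and H3-3A), beside 28.9% of all genes, and the replication-dependent count of 3 was then 1. That count was also 1 by DESeq2 and with a mean of at least 50, where 8 of the 24 genes were tested. The deviations of same-numbered libraries from their group means correlated at -0.255, -0.229 and 0.005. For libraries of unequal number the values ran from -0.171 to 0.262, the highest for 786-O replicate 2 with FOXD1null replicate 1. With 3 libraries per group these values cannot decide whether equal numbers mark paired libraries. When each library was left out in turn, the count over all histone genes ran from 1 to 7, or to 9 without both 786-O replicate 2 and FOXD1null replicate 1. That of replication-dependent genes ran from 0 to 2, or to 4 without both, and that of variants from 1 to 5. Equal totals moved the median of all genes to -0.10, and each fold change with it.

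Small values of genes that were not called changed sign. When each library was left out in turn, log2 fold changes ran from -0.19 to 0.041 for H1-2, which was at 0.003 without FOXD1null replicate 3 and at 0.041 without 786-O replicate 2. They ran to 0.040 for H2AX without FOXD1null replicate 3, with 0.01 without 786-O replicate 1, from the -0.18 without both 786-O replicate 2 and FOXD1null replicate 1. For H3-3B they ran from -0.083 to 0.038, with values above 0 without FOXD1null replicate 2 or 3 or 786-O replicate 2. H3-5 was at 0.12 without 786-O replicate 2 and at 0.067 without that library and FOXD1null replicate 1. H4C3 ran from -0.38 to 0.17, and was above 0 without FOXD1null replicate 2 or 3 or 786-O replicate 3, and at 0.00070 by DESeq2. MACROH2A1 ran from -0.00021 to 0.11, the lowest without both 786-O replicate 2 and FOXD1null replicate 1, and was at -0.014 with equal totals. Of the other values of single genes, 170 kept their direction and side of the threshold, 33 lost a call and 6 gained one. The causes were not tested. With 7 to 173 reads per library, counting error bears on every value of the replication-dependent genes.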
